A study of Mus musculus with 36 samples.

Results

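The nuclear genes of oxidative phosphorylation were followed in ribosome-bound RNA of mouse cortex. Members were the protein-coding rows whose symbol begins with Nduf followed by a, b, c, s or v and a digit (complex I), is Sdha to Sdhd (complex II), begins with Uqcr or is Cyc1 (complex III), is Cycs (cytochrome c), begins with Cox followed by 4 to 8 (complex IV) or begins with Atp5 (complex V). This rule found 87 members among 55470 rows, with 37 in complex I, 4 in complex II, 9 in complex III, 1 for cytochrome c, 18 in complex IV and 18 in complex V. A further 11 rows with such symbols were pseudogenes and 1 was another non-coding row, and these were left out. Reads of a gene and its processed pseudogene can be split by the counting, so levels carry that uncertainty. A low-count filter kept 78 members, 36, 4, 9, 1, 11 and 17 of the classes in that order.

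The study sequenced 36 libraries from the cortex of C57BL6JL mice after RiboTag pull-down, in which an HA-tagged Rpl22 allele is switched on by Camk2a-Cre and tagged ribosomes are precipitated with an anti-HA antibody. Shank3 mice were Shank3(ΔC/+);HA-Rpl22(f/+);Camk2a-Cre(+/-), and WT mice were littermates with Shank3(+/+) that carried the same tag and Cre, so every library comes from animals with a heterozygous tag allele and the driver. The extraction text of the labels writes the tag as f/f. Swim mice had a single forced swim in water of 25 °C, given as 5 min in the labels of the samples and as 6 min in the protocol, and cortex was taken 1 h or 4 h later, whereas naive mice stayed in their home cages. Cohort 1 held 5 Shank3 libraries and 6 WT libraries at 1 h, with 3 naive libraries of each genotype. Cohort 2 held 6 Shank3 libraries and 5 WT libraries at 4 h, with 4 naive libraries of each genotype. Each swim group is set only against naive mice of its own cohort and genotype. The labels used here give neither age nor sex and tie no library to a named animal, so that p-values measure the spread between libraries. The design asks whether the heterozygous mutation, the swim and the time after it alter these genes.

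In oxidative phosphorylation, complex I and complex II pass electrons from NADH and from succinate to ubiquinone, complex III passes them on to cytochrome c, and complex IV delivers them to oxygen. Complexes I, III and IV pump protons across the inner mitochondrial membrane, and complex V uses the resulting gradient to make ATP. All subunits of complex II and most of those of the other complexes are encoded in the nucleus, and neurons draw most of their ATP from this pathway.

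Libraries held between 0.884 and 3.52 M counts (1.58 ± 0.553 M, SD, n = 36), below the 15 M reads that the labels state. Members held 272068 of 56873390 counts, or 0.478%, and between 1581 and 32024 counts per library. Rows whose exons overlap exons of another gene on the opposite strand were 16.38% of all rows yet carried 75.67% of the counts. The sources used here do not give the strand setting of the counting. Among members, 26 have such overlapping exons, 4 lie opposite a gene without touching its exons and 57 have no gene opposite, so reads of the first 26 and of their partners may not be told apart. The pair share is the percent of counts on the protein-coding row among 1676 antisense rows and 1727 coding rows with overlapping exons, computed per library. It was 17.53 to 33.09% (median 25.91%) in Shank3 mice at 4 h, against a median of 12.72% in naive Shank3 mice of cohort 2. In WT mice it was 17.04 to 31.65% (median 22.57%) at 4 h, against a median of 13.11% in naive mice. At 1 h the medians were 13.04% in Shank3 swim mice, against 11.3% in naive Shank3 mice, and 14.21% in WT swim mice, against 10.82% in naive WT mice. The 3 libraries with over 10% of their counts on a ribosomal RNA row were Shank3 naive replicates 6 and 7 of cohort 2 and WT 1 h replicate 5. Shank3 itself averaged 22.2 ± 9.29 CPM in Shank3 mice at 4 h and 12.2 ± 4.93 CPM in WT mice at 4 h (SD, n = 6 and 5), and no genotype contrast of it passed the test (edgeR, adjusted p at least 0.9999). The mutation removes part of that gene and its exons overlap another gene, so this row checks no label. Ribosome-bound RNA from a tissue cannot tell fewer tagged cells from less RNA per cell.

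The promoters of these genes are known to carry sites for NRF1, ETS factors such as the NRF2 protein GABP, and YY1, so the letters GCGCA and GCGC with any base between them (NRF1), CCGGAAG (ETS) and AAGATGGCG (YY1) were searched on both strands from 250 bases before to 50 bases after the start sites that RefSeq gives on GRCm38.p6. A window was found for 68 of the 87 members, and 35 of these held at least 1 of the 3 motifs. Among those not matched were Atp5a1, Atp5f1, Atp5mpl, Atp5s, Cox4i1, Cox4i2, Cox6a2, Cox6c, Cox8c, Cyc1, Ndufa2, Ndufa4l2, Ndufb9, Ndufs1, Sdhc, Uqcrb, Uqcrc2 and Uqcrq. The NRF1 letters were in 18 members, or 26.5%, and in 5.19% of 27025 genes with a window. The ETS letters were in 16 members, or 23.5%, and in 9.93% of all genes, and the YY1 letters were in 7 members, or 10.3%, and in 1.64% of all genes. No ETS match overlapped a YY1 match in a member. The windows of 4 members that were called higher after the swim and of 2 that were called lower are printed below in the direction of the gene, chosen after their values were seen, to show that the same letters occur around the start sites of genes of both directions. Capitals mark the NRF1 and ETS letters on either strand (CTTCCGG is CCGGAAG read on the other strand). A match is a description of the sequence only.
Cox6a1 chr5:115348909-115349208 (- strand): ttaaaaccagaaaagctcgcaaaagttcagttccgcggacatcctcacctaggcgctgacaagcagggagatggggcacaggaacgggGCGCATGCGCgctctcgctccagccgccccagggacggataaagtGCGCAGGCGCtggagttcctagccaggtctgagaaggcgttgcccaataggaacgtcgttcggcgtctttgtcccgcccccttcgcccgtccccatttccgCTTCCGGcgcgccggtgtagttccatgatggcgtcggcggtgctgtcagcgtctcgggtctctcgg
Cox8a chr19:7217567-7217866 (- strand): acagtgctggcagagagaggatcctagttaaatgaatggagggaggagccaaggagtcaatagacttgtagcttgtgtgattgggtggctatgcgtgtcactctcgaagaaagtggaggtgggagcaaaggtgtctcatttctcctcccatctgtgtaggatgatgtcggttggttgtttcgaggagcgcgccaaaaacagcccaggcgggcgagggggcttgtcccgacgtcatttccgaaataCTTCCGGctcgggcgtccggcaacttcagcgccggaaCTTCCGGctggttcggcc
Atp5h chr11:115419870-115420169 (- strand): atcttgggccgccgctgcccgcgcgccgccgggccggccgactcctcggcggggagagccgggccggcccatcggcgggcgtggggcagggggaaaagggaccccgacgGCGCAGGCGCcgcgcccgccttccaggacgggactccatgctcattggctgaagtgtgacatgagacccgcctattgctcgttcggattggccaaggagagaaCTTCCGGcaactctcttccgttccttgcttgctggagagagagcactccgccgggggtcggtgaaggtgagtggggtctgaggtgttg
Sdhb chr4:140961021-140961320 (+ strand): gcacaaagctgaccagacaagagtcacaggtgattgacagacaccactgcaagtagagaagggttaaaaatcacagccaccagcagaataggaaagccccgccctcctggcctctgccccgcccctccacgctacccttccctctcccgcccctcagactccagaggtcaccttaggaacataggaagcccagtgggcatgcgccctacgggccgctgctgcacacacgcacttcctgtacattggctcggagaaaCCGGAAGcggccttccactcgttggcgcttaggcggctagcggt
Ndufs3 chr2:90904672-90904971 (- strand): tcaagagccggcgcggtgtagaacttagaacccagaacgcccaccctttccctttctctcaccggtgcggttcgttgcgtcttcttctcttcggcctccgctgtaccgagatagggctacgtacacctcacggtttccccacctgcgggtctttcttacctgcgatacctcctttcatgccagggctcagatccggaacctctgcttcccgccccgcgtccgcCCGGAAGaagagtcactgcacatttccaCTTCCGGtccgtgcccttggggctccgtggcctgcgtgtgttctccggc
Ndufa5 chr6:24527477-24527776 (- strand): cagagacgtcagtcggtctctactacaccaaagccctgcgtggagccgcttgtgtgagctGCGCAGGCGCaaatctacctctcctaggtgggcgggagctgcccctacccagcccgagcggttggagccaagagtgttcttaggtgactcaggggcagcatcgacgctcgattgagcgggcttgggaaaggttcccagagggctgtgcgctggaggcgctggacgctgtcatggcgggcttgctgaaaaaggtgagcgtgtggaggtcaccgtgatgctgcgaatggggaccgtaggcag
At 4 h, when 32.7% of all genes were called higher and 29.4% lower in Shank3 mice and 29.0% and 26.9% in WT mice, 11 of 17 tested members with the NRF1 letters were called higher and 1 lower in Shank3 mice, against 39 higher and 1 lower of 46 without them. In WT mice these counts were 10 higher and 1 lower of 17 with the letters, and 35 higher and 1 lower of 46 without. For the ETS letters, 13 of 16 members with them were called higher and 1 lower in Shank3 mice, against 37 higher and 1 lower of 47 without, and in WT mice 12 higher and 1 lower of 16 with them, against 33 higher and 1 lower of 47 without. For the YY1 letters, 5 of 7 with them were called higher and 0 lower in each genotype, against 45 higher and 2 lower of 56 without in Shank3 mice and 40 higher and 2 lower in WT mice. These counts carry no test.

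Levels of different genes were compared as CPM per kilobase of exon, scaled by TMM and averaged over 36 libraries. Exon length merges the exons of all annotated transcripts of a gene, so ranks depend on that length. The 2 highest members of complex V were Atp5b, the catalytic beta subunit, at 146 and Atp5a1, the alpha subunit, at 129.5, followed by the stalk subunits Atp5f1 at 105 and Atp5h at 69.4. The 2 highest of complex I were Ndufs5 at 64.6 and Ndufs3, a core subunit, at 61.8. In complex II they were Sdha, the flavoprotein, at 60.8 and Sdhd at 10.9, in complex III Uqcrh, the hinge protein, at 45.3 and Uqcrc2, a core protein, at 30.7, and in complex IV Cox6b1 at 59.4 and Cox4i1 at 50.8. Cycs stood at 12.7. Median levels of the classes were 9.41 for complex I, 9.12 for complex II, 15.6 for complex III, 7.19 for complex IV and 11.2 for complex V, on the same scale.

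Isoforms known from other tissues were at or near 0. Cox4i2, Cox8b and Cox8c had no counts, Cox6a2, a muscle form, stood at 0.171 CPM per kilobase and Cox6a1 at 26.8, Cox7a1, another muscle form, at 0.984 and Cox7a2 at 7.485, and Ndufa4l2 at 0.582 and Ndufa4 at 34.4. Ndufa4 is now placed in complex IV by many authors and is kept under its symbol here. Of the 3 genes for subunit c of complex V, Atp5g3 was highest at 27.0, then Atp5g2 at 3.05 and Atp5g1 at 1.95. Without division by length the order of the last 2 turned, with Atp5g1 at 9.59 CPM and Atp5g2 at 5.11 CPM. By raw counts, Atp5b held 16.2%, Atp5a1 10.98% and Atp5f1 8.55% of all member counts, together 35.7%.

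Members made up a larger part of the counts after the swim in both genotypes. In Shank3 mice at 4 h they held 0.508 to 0.912% of the counts (0.725 ± 0.188%, SD, n = 6), against 0.148 to 0.381% in naive mice of cohort 2 (0.254 ± 0.0977%, n = 4). In WT mice at 4 h they held 0.468 to 0.910% (0.672 ± 0.159%, n = 5), against 0.197 to 0.388% in naive mice (0.290 ± 0.0830%, n = 4). All 4 h libraries lay above all naive libraries of their cohort. Most other genes also gained on this scale. With libraries scaled by total counts, 63.4% of all genes were called higher in Shank3 mice at 4 h and 57.1% in WT mice (edgeR). The median log2 fold change at 4 h was then 1.17 and 0.98 for all genes, and 2.15 and 1.80 for members. At 1 h the share was 0.351 ± 0.0623% in Shank3 swim mice, against 0.208 ± 0.0223% in naive mice, and 0.374 ± 0.125% in WT swim mice, against 0.175 ± 0.0125% in naive mice.

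**Figure D1:**
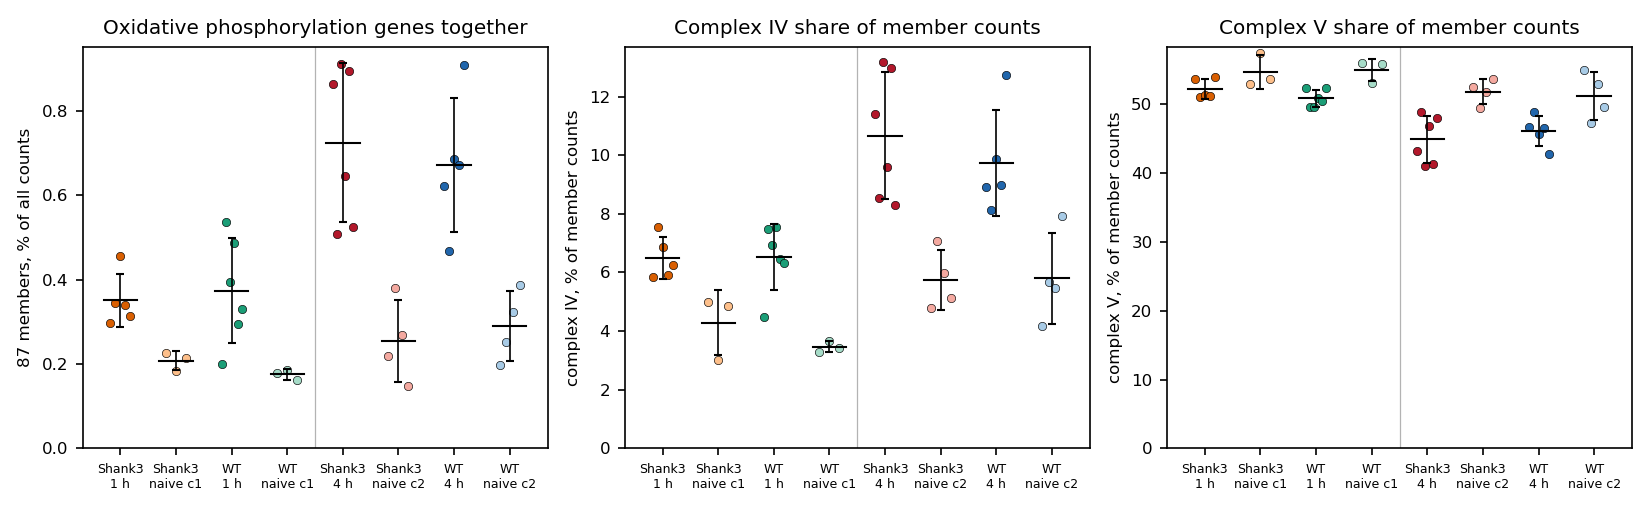
Percent of all counts on members, and percent of member counts on complex IV and on complex V, for each library (points) with the mean and SD of each group (bars). At 4 h the members' share averaged 0.725% in Shank3 mice against 0.254% in naive Shank3 mice, complex IV took more of the member counts and complex V less. The mean share of Atp5f1 alone fell by more than that of complex V. The median of all genes also rose at 4 h with libraries scaled by total counts.

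Within the members, the balance of the complexes shifted after the swim, at 4 h and in part at 1 h. Complex IV held 8.28 to 13.2% of member counts in Shank3 mice at 4 h (10.7 ± 2.18%), against 4.80 to 7.08% in naive mice (5.75 ± 1.02%), and 8.14 to 12.8% in WT mice at 4 h (9.73 ± 1.80%), against 4.16 to 7.91% in naive mice (5.81 ± 1.56%). Complex V held 44.9 ± 3.46% of member counts in Shank3 mice at 4 h, against 51.9 ± 1.81% in naive mice, and 46.1 ± 2.22% in WT mice at 4 h, against 51.2 ± 3.46% in naive mice. Atp5f1 alone had 617 to 1137 of 6712 to 24889 member counts in Shank3 mice at 4 h, against 375 to 718 of 2089 to 6877 in naive mice. In WT mice it had 599 to 1333 of 8379 to 32024 at 4 h, against 333 to 697 of 2354 to 5115. Its mean share fell by more than that of complex V, so the other complex V members together lost none. For complex IV the 4 h and naive libraries did not overlap in either genotype. For complex V they overlapped in WT mice, where 4 h libraries reached 48.9% and naive libraries went down to 47.3%, and did not overlap in Shank3 mice, where 4 h libraries reached 49.0% and naive libraries began at 49.4%. Complex I held 25.7 to 27.3% of member counts in the mean of every group. At 1 h complex IV held 5.84 to 7.55% in Shank3 mice, against 3.01 to 5.00% in naive mice, without overlap. In WT mice it held 4.49 to 7.54%, against 3.29 to 3.67% in naive mice, also without overlap. Complex V held 49.6 to 52.4% in WT mice at 1 h, against 53.2 to 56.0% in naive mice, without overlap. In Shank3 mice it held 51.1 to 54.0%, against 52.9 to 57.5% in naive mice, with overlap. These shares were not tested.

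At 1 h after the swim, 32 of 78 members rose and 2 fell in WT mice, where 16.9% of the 11341 genes tested were called higher and 17.3% lower (edgeR quasi-likelihood test, Benjamini-Hochberg adjusted p under 0.05 over all genes tested). In Shank3 mice 4 members rose and 1 fell, where 4.99% of all genes were called higher and 7.25% lower. The median log2 fold change of the members was 0.48 in Shank3 mice and 0.89 in WT mice, and that of all genes tested was 0.09 and 0.24. By complex the medians were 0.41 in Shank3 mice and 0.73 in WT mice for complex I, 0.38 and 1.03 for complex II, 0.45 and 0.82 for complex III, 0.53 and 1.32 for complex IV, and 0.70 and 0.90 for complex V. The genotypes share no library in these contrasts, and the test of the difference between them is given further on.

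Cox6c, a small nuclear subunit of complex IV (chromosome 15, 35925886 to 35938246, minus strand, mm10), had the smallest p of the members at 1 h in both genotypes. It had 66.3, 67.5, 71.7, 79.1 and 98.5 CPM in Shank3 mice at 1 h, against 10.5, 24.0 and 31.3 CPM in naive Shank3 mice. In WT mice at 1 h its lowest, median and highest values were 32.7, 64.7 and 78.7 CPM, against 9.20, 17.3 and 26.7 CPM in naive WT mice. All swim libraries lay above all naive libraries of their genotype. The log2 fold change was 1.79 ± 0.28 (SE) in Shank3 mice (edgeR, adjusted p = 0.000187) and 1.88 ± 0.30 in WT mice (adjusted p = 0.000191). Of its exons, 250 bases lie opposite exons of Vps13b, a row with 0.158 of the counts of Cox6c that was not called at 1 h, at log2 1.20 in Shank3 mice and 0.87 in WT mice.

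Cycs, the mobile electron carrier (chromosome 6, 50562563 to 50566538, minus strand), had 33.0, 36.8, 41.0, 43.7 and 51.5 CPM in Shank3 mice at 1 h, against 16.3, 17.7 and 23.3 CPM in naive mice. In WT mice it had a lowest, median and highest value of 29.8, 43.5 and 64.1 CPM at 1 h, against 17.3, 18.8 and 24.2 CPM in naive mice. Swim and naive libraries did not overlap in either genotype. It rose by 1.10 ± 0.29 on the log2 scale in Shank3 mice (edgeR, adjusted p = 0.0189) and by 1.15 ± 0.29 in WT mice (adjusted p = 0.00417). The call in Shank3 mice was lost without Shank3 naive replicate 2 of cohort 1 (adjusted p = 0.135), naive replicate 3 (adjusted p = 0.0717) or swim replicate 3 (adjusted p = 0.0573).

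The other members called in Shank3 mice at 1 h were Atp5h, a stalk subunit of complex V (log2 0.70 ± 0.24), Uqcrc1, a core protein of complex III (0.87 ± 0.30), and, lower, Ndufs3 (-0.69 ± 0.21). Their adjusted p-values were 0.0461, 0.0473 and 0.0313 (edgeR), close to the threshold. Leaving out 1 library at a time ended the call of Uqcrc1 in 18 of 36 cases (highest adjusted p = 0.143), that of Atp5h in 11 (highest 0.247) and that of Ndufs3 in 6 (highest 0.242), each time also when Shank3 naive replicate 2 of cohort 1 was left out. All 5 members called in Shank3 mice were also called in the same direction in WT mice, where they are 12.5% of the 32 members called higher and 50% of the 2 called lower. The overlap over all genes at 1 h is not given here.

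In WT mice at 1 h complex I had 14 members called higher and 1 lower. Ndufv1, the subunit that binds NADH, ran from 19.5 to 47.1 CPM (median 38.0), against 5.19, 15.7 and 18.4 CPM in naive mice, without overlap, with a log2 fold change of 1.39 ± 0.37 (edgeR, adjusted p = 0.00530). Ndufs3 fell to between 101 and 179 CPM (median 119), against 199, 242 and 265 CPM in naive mice, by 0.87 ± 0.20 on the log2 scale (adjusted p = 0.00224). On total counts its values at 1 h were -0.19 in Shank3 mice and -0.32 in WT mice, and neither was called (adjusted p = 0.401 and 0.117). Ndufs1, the large iron-sulfur subunit, rose by 0.54 ± 0.21 (adjusted p = 0.0392), and 7 of 36 single libraries ended that call when left out. Dropping WT naive replicate 3 of cohort 1 gave 0.35 (adjusted p = 0.267) and dropping replicate 2 gave 0.86.

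In complex II, Sdha (0.54 ± 0.19) and Sdhd, a membrane anchor (1.5 ± 0.53), rose in WT mice at 1 h. In complex III 4 of 9 members rose, namely Uqcrh (0.90), Uqcrb (1.01), Uqcrc1 (0.82) and Uqcr10 (1.73). In complex IV 3 of 11 rose, Cox6c, Cox6b1 (1.53) and Cox4i1. Cox4i1, the largest nuclear subunit (chromosome 8, 120668222 to 120674207, plus strand), ran from 35.2 to 104 CPM at 1 h (median 70.6), against 12.6, 23.0 and 25.9 CPM in naive mice, without overlap, with a log2 fold change of 1.85 ± 0.38 (edgeR, adjusted p = 0.00114). The call of Sdha was lost without WT naive replicate 1 (adjusted p = 0.0713), WT naive replicate 3 (0.147), WT 1 h replicate 2 (0.0727) or WT 1 h replicate 4 (0.0648). That of Uqcrc1 was lost without WT naive replicates 2 or 3 (0.118 each) or WT 1 h replicates 2 (0.0891) or 4 (0.0671).

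In complex V 8 of 17 members rose in WT mice at 1 h and 1 fell. Atp5b ran from 402 to 886 CPM (median 698), against 350.0, 360 and 408 CPM in naive mice. The lowest swim library, at 402 CPM, lay below the highest naive library. The log2 fold change was 0.90 ± 0.21 (edgeR, adjusted p = 0.00274). Atp5f1, the peripheral stalk subunit b, fell by 0.55 ± 0.20 (adjusted p = 0.0320), a call that 6 of 36 single libraries ended when left out (highest adjusted p = 0.109), and total counts gave 0.0296.

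At 4 h after the swim, 58 of 78 members rose and 3 fell in Shank3 mice, where 32.7% of all genes tested were called higher and 29.4% lower (edgeR). In WT mice 51 members rose and 3 fell, where 29.0% of all genes were called higher and 26.9% lower. In all, 62.1% of genes were called in Shank3 mice and 56.0% in WT mice. The median log2 fold change was 1.17 in Shank3 mice and 1.05 in WT mice, and that of all genes was 0.22 and 0.23. The calls of the 2 genotypes, which share no library, had 48 higher members in common, 82.8% of those in Shank3 mice and 94.1% of those in WT mice. The 3 lower members were Atp5f1, Ndufs3 and Ndufa5 in both, on the TMM scale and not on total counts. Among WT mice, 21 members were called higher at both times, 65.6% of the 32 at 1 h and 41.2% of the 51 at 4 h. The same overlaps over all genes are not given here, so these are not shown to be particular to members.

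**Figure D2:**
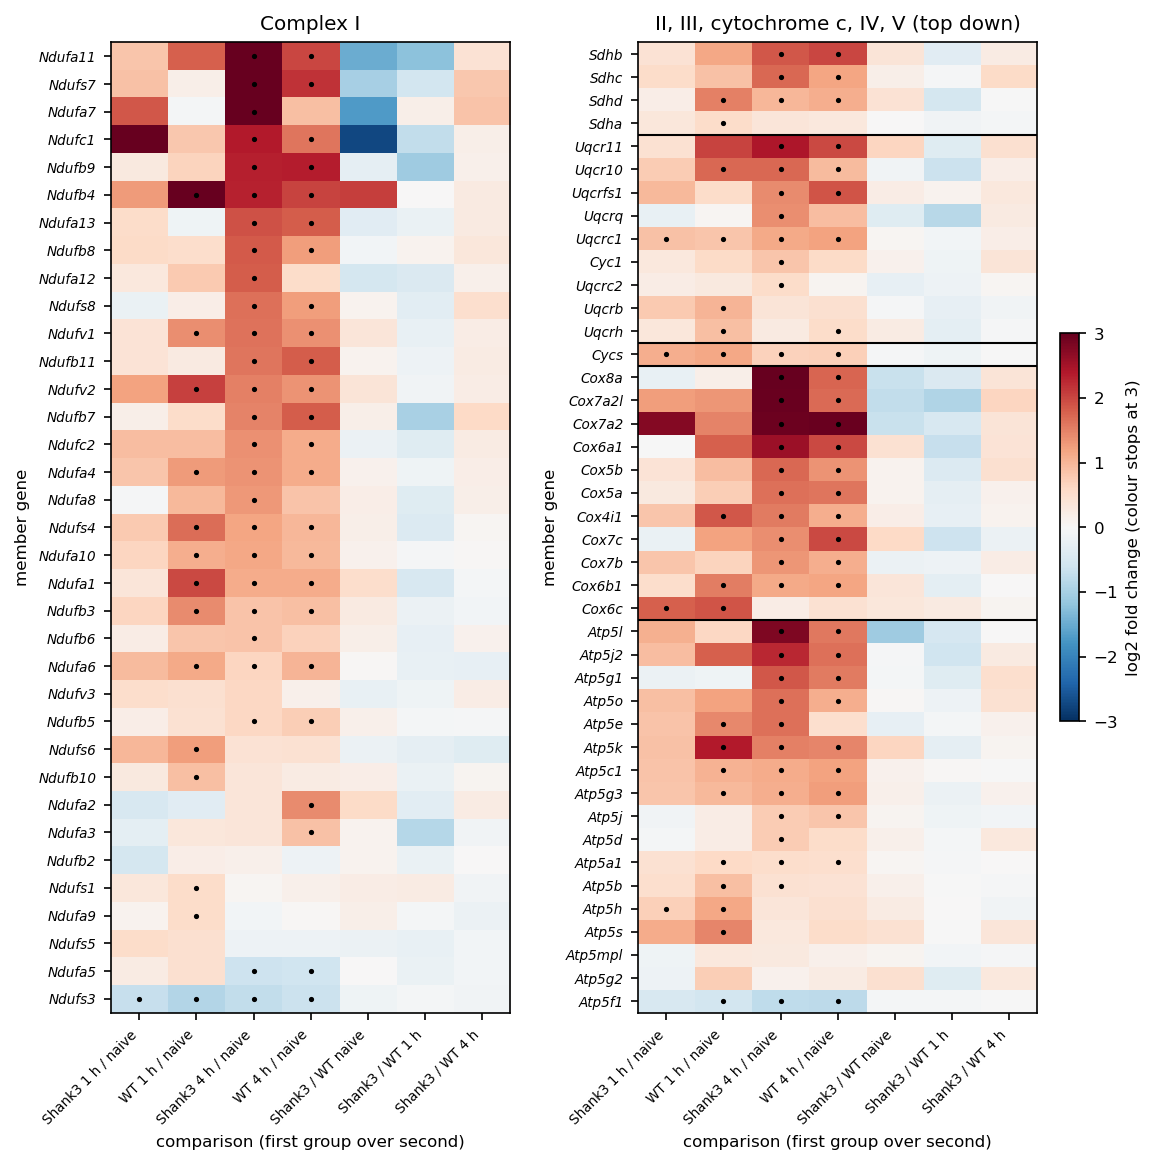
Log2 fold change of tested members, ordered by complex (rows, with 1 member not shown), in 7 comparisons (columns), with a dot where the adjusted p was under 0.05. Most rows carry a dot in the 4 h columns of both genotypes, and the genotype columns carry none.

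In complex I 25 of 36 members rose and 2 fell in Shank3 mice at 4 h, and 23 rose and 2 fell in WT mice, with medians of 1.17 and 0.98. Ndufv1 (chromosome 19, 4007384 to 4012806, minus strand) ran from 53.7 to 117 CPM in Shank3 mice at 4 h (median 75.6), against 21.2, 22.6, 27.2 and 31.9 CPM in naive mice. WT mice had 53.6, 63.1, 65.8, 67.9 and 96.6 CPM at 4 h, against 18.5, 22.4, 28.6 and 36.9 CPM in naive mice. All 4 h libraries lay above all naive ones. The log2 fold change was 1.63 ± 0.27 in Shank3 mice (edgeR, adjusted p = 7.01e-06) and 1.37 ± 0.27 in WT mice (adjusted p = 0.000103). Ndufs1 and Ndufs5 were not called in either genotype at 4 h, at log2 0.05 and -0.15 in Shank3 mice and 0.14 and -0.14 in WT mice.

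Ndufs3 and Ndufa5, an accessory subunit, went the other way. Ndufs3 (chromosome 2, 90894634 to 90904827, minus strand) ran from 73.4 to 101 CPM in Shank3 mice at 4 h (median 87.6), against 96.8, 140, 144 and 201 CPM in naive mice. WT mice had 85.5, 91.2, 91.6, 92.6 and 105 CPM at 4 h, against 123, 131, 149 and 182 CPM in naive mice. The groups overlapped in Shank3 mice by a single naive library and did not overlap in WT mice. It fell by 0.73 ± 0.18 on the log2 scale in Shank3 mice (edgeR, adjusted p = 0.000953) and by 0.65 ± 0.19 in WT mice (adjusted p = 0.00483), where total counts gave 0.25 and 0.13. Ndufa5 fell by 0.62 ± 0.20 in Shank3 mice (adjusted p = 0.00646) and by 0.60 ± 0.20 in WT mice (adjusted p = 0.0115), and without WT naive replicate 5 of cohort 2 the adjusted p in WT mice was 0.0627. Total counts gave 0.33 and 0.12.

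In complex II 3 of 4 members rose in both genotypes at 4 h, Sdhb, Sdhc and Sdhd. Sdhb, the iron-sulfur subunit (chromosome 4, 140961203 to 140979193, plus strand), ran from 19.2 to 49.0 CPM in Shank3 mice at 4 h (median 31.6), against 3.56, 5.30, 12.9 and 12.98 CPM in naive mice. WT mice had 19.3, 22.9, 25.1, 31.3 and 41.9 CPM at 4 h, against 3.99, 6.92, 8.16 and 9.21 CPM in naive mice. Swim and naive libraries did not overlap. The log2 fold change was 1.86 ± 0.36 in Shank3 mice (edgeR, adjusted p = 4.38e-05) and 2.01 ± 0.39 in WT mice (adjusted p = 6.40e-05). Sdha was not called, at 0.36 ± 0.17 in Shank3 mice and 0.33 ± 0.18 in WT mice (adjusted p = 0.0681 and 0.110).

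In complex III 7 of 9 members rose in Shank3 mice at 4 h and 5 in WT mice, with medians of 1.14 and 0.92. Uqcrc1 ran from 59.2 to 109 CPM in Shank3 mice at 4 h (median 82.5), against 26.1, 35.8, 37.2 and 47.0 CPM in naive mice. Values in WT mice were 55.0, 61.7, 66.2, 72.4 and 99.8 CPM at 4 h, against 12.7, 34.2, 35.4 and 40.9 CPM in naive mice. The groups did not overlap, and the log2 fold changes were 1.14 ± 0.24 in Shank3 mice and 1.20 ± 0.25 in WT mice (edgeR, adjusted p = 0.000124 and 0.000162). Uqcrfs1, the Rieske iron-sulfur protein, rose by 1.42 ± 0.36 and 1.89 ± 0.41 (adjusted p = 0.00112 and 0.000270). Cyc1, cytochrome c1, rose by 0.84 ± 0.31 in Shank3 mice (adjusted p = 0.0198) and was not called in WT mice at 0.58 ± 0.33 (adjusted p = 0.124). The Shank3 call of Cyc1 was lost without Shank3 naive replicate 7 (adjusted p = 0.0858) or Shank3 4 h replicate 3 (adjusted p = 0.0577).

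Cycs rose less at 4 h than the medians of complexes I to IV, by 0.70 ± 0.22 in Shank3 mice and 0.71 ± 0.23 in WT mice (edgeR, adjusted p = 0.00671 and 0.00935). It had 54.1 to 66.1 CPM in Shank3 mice at 4 h (median 62.1), against 23.8, 25.8, 34.4 and 58.4 CPM in naive mice, where a single naive library overlapped the swim group. Without that library, Shank3 naive replicate 5 of cohort 2, the log2 fold change was 1.11. In WT mice it had 51.3 to 69.3 CPM at 4 h, against 19.6 to 46.8 CPM in naive mice, without overlap, and the call was lost without WT naive replicate 4 of cohort 2 (adjusted p = 0.0739).

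Complex IV had the largest median at 4 h, 1.66 in Shank3 mice and 1.60 in WT mice, and 10 of its 11 tested members rose in each genotype. The exception was Cox6c, with a log2 fold change of 0.21 ± 0.21 in Shank3 mice and 0.46 ± 0.23 in WT mice (edgeR, adjusted p = 0.388 and 0.0772). Cox8a, another small subunit (chromosome 19, 7215153 to 7217616, minus strand), ran from 8.65 to 37.3 CPM in Shank3 mice at 4 h (median 20.1), against 1.33, 1.43, 2.16 and 2.38 CPM in naive mice. Values in WT mice were 9.41, 10.8, 12.6, 13.2 and 33.7 CPM at 4 h, against 2.31, 4.08, 5.27 and 7.97 CPM in naive mice. The groups did not overlap in either genotype, though the naive values rest on few counts. The log2 fold change was 3.46 ± 0.60 in Shank3 mice (adjusted p = 1.05e-05) and 1.75 ± 0.51 in WT mice (adjusted p = 0.00392).

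Cox6a1 (chromosome 5, 115345642 to 115348981, minus strand) ran from 18.8 to 81.7 CPM in Shank3 mice at 4 h (median 47.2), against 4.29, 5.30, 7.12 and 12.98 CPM in naive mice, and had 14.1, 23.9, 33.4, 38.1 and 73.4 CPM in WT mice at 4 h, against 4.62, 8.84, 10.5 and 14.0 CPM in naive mice. All 4 h libraries lay above the naive ones, the nearest by a small gap in WT mice. Its log2 fold change was 2.57 ± 0.47 in Shank3 mice and 1.97 ± 0.47 in WT mice (edgeR, adjusted p = 2.36e-05 and 0.000716). Cox7a2 rose by 2.93 ± 0.61 and 2.96 ± 0.66 (adjusted p = 0.000105 and 0.000371), with naive libraries at 0 to 6.62 CPM, and Cox4i1 by 1.56 ± 0.29 and 1.10 ± 0.29 (adjusted p = 3.16e-05 and 0.00194).

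**Figure D3:**
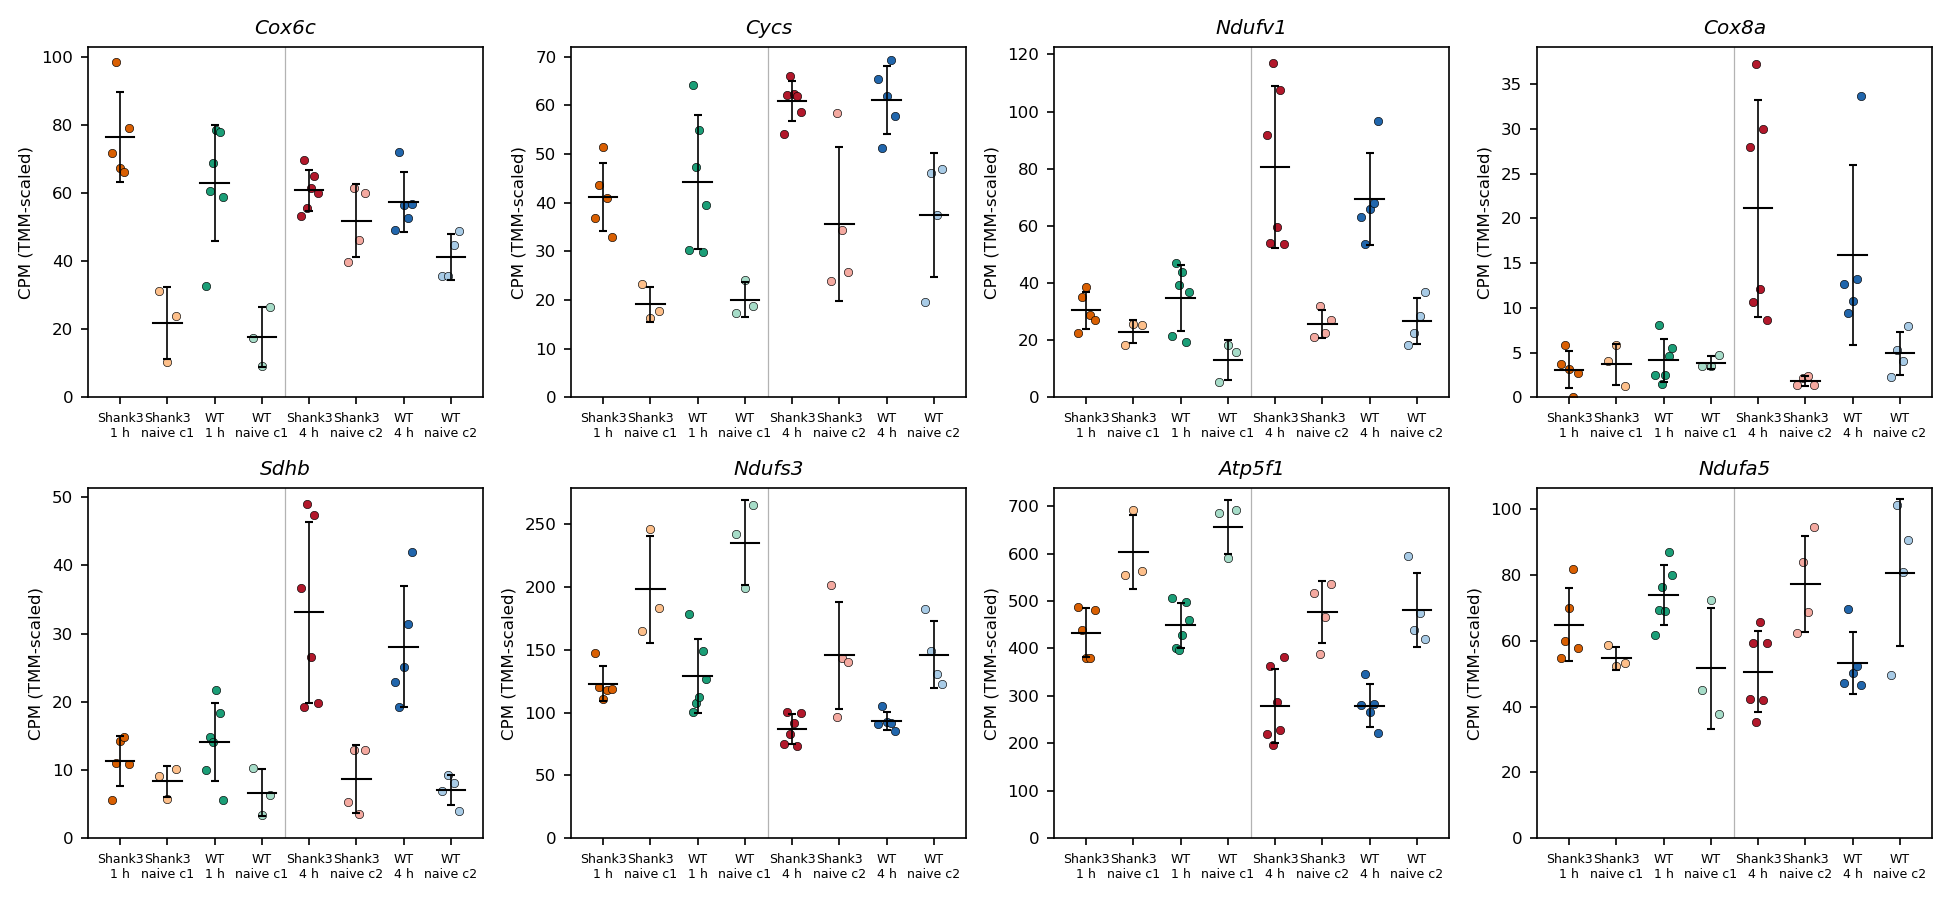
CPM on the TMM scale of 8 members in each library (points) of the 8 groups, with the mean and SD of each group. Cox6c is above its naive libraries at 1 h, while its 4 h libraries lie closer to the higher naive libraries of cohort 2, Cox8a, Sdhb and Ndufv1 are high at 4 h, and Ndufs3, Atp5f1 and Ndufa5 are low at 4 h in both genotypes on this scale, though not on total counts.

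Complex V had the smallest median of the complexes at 4 h, 0.76 in Shank3 mice and 0.54 in WT mice. In Shank3 mice 12 of 17 members rose and 1 fell, and in WT mice 9 rose and 1 fell. Atp5f1 (chromosome 3, 105942698 to 105960099, minus strand) ran from 198 to 381 CPM in Shank3 mice at 4 h (median 258), against 388, 467, 517 and 537 CPM in naive mice. Values in WT mice were 223, 265, 280.1, 284 and 347 CPM at 4 h, against 421, 438, 474 and 594 CPM in naive mice. All 4 h libraries lay below all naive ones. It fell by 0.77 ± 0.18 on the log2 scale in Shank3 mice (edgeR, adjusted p = 0.000497) and by 0.79 ± 0.19 in WT mice (adjusted p = 0.000843), where total counts gave 0.19 and -0.03.

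The catalytic subunits changed little and near the threshold. Atp5a1 rose by 0.53 ± 0.18 in Shank3 mice and 0.51 ± 0.19 in WT mice (edgeR, adjusted p = 0.0113 and 0.0193). The Shank3 call was lost without Shank3 naive replicate 4 (adjusted p = 0.0513), and the WT call was lost without WT naive replicate 4 (0.0788), WT naive replicate 5 (0.0717) or WT 4 h replicate 5 (0.0640). Atp5b rose by 0.46 ± 0.19 in Shank3 mice (adjusted p = 0.0308) and was not called in WT mice at 0.43 ± 0.19 (adjusted p = 0.0548). The Shank3 call of Atp5b was lost without Shank3 naive replicate 4 (0.123), 6 (0.0518) or 7 (0.0730) or Shank3 4 h replicate 4 (0.0570). Of the subunit c genes, Atp5g1, the lowest per kilobase, rose by 1.87 ± 0.49 and 1.56 ± 0.53, Atp5g3, the highest, by 1.09 and 1.25, and Atp5g2 was not called. Without WT 4 h replicate 5 the WT value of Atp5g1 had an adjusted p of 0.0704.

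Across the 78 members at 4 h, the log2 fold change had a Spearman rho of -0.57 with the mean CPM in Shank3 mice and -0.50 in WT mice, and of -0.15 and -0.23 with exon length. These describe genes that share libraries and depth, and carry no p. Members with no gene opposite had a median log2 fold change of 1.39 in Shank3 mice (43 of 51 called higher, 1 lower) and 1.12 in WT mice (36 higher, 1 lower), and the 27 with a gene opposite had 0.56 (15 higher, 2 lower) and 0.69 (15 higher, 2 lower). Among the 4822 tested genes with no gene opposite, 44.8% were called higher and 11.7% lower in Shank3 mice, and 38.4% and 11.6% in WT mice. The median log2 fold change of these genes was 0.62 in Shank3 mice and 0.58 in WT mice. At 1 h their shares were 5.27% and 2.41% in Shank3 mice and 21.6% and 5.56% in WT mice, and for the difference of 4 h minus 1 h they were 3.63% and 4.98%. The share among all genes with a gene opposite is not given here. Among all genes tested at 4 h, 32.7% were called higher and 29.4% lower in Shank3 mice, and 29.0% and 26.9% in WT mice.

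These fold changes depend on the scaling of the libraries, since TMM factors ran from 0.498 to 1.818. With total counts in place of TMM, the median of all genes moved up by 0.48 in Shank3 mice and 0.61 in WT mice at 1 h, and by 0.95 and 0.76 at 4 h. With TMM factors taken from genes with no gene opposite it moved down by 0.22 and 0.38 at 1 h, and by 0.49 and 0.45 at 4 h. At 4 h the median of the members less that of all genes stayed between 0.94 and 0.98 in Shank3 mice and between 0.81 and 0.82 in WT mice. The settings were TMM, DESeq2 size factors, total counts and the TMM factors of genes with no gene opposite. A change of scaling moves all genes of a comparison by nearly the same amount, so this difference could hardly change among them. With the pair share in the model it was 0.061 in Shank3 mice and 0.035 in WT mice. On total counts 75 members were called higher and 0 lower in Shank3 mice at 4 h and 72 and 0 in WT mice, where 63.4% and 57.1% of all genes were called higher and 10.3% and 12.2% lower. With the TMM factors of genes with no gene opposite, 39 were called higher and 6 lower in Shank3 mice and 30 and 5 in WT mice, where 15.6% and 13.1% of all genes were called higher and 39.8% and 36.2% lower. At 1 h the counts on total counts were 16 higher and 0 lower in Shank3 mice and 43 and 0 in WT mice, and with the factors of genes with no gene opposite 2 higher and 1 lower in Shank3 mice and 14 and 2 in WT mice. The shares of all genes at 1 h were 14.7% higher and 0.908% lower in Shank3 mice and 36.7% and 4.45% in WT mice on total counts, and 1.91% and 4.68% in Shank3 mice and 6.99% and 23.2% in WT mice with the factors of genes with no gene opposite. On total counts the log2 fold changes of Ndufs3, Atp5f1 and Ndufa5 at 4 h were 0.25, 0.19 and 0.33 in Shank3 mice and 0.13, -0.03 and 0.12 in WT mice, and none was called, so that they fell relative to other genes and not in their part of all counts.

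The responses at 4 h and at 1 h were set against each other as a difference, averaged over the genotypes, which also carries any difference in response between the cohorts. Of the members 5 were called higher and 3 lower, where 3.74% of all genes were called higher and 8.61% lower (edgeR). Cox6c had the smallest p, with a difference of -1.497 ± 0.26 (adjusted p = 0.000235), followed by Ndufa5 at -0.98 ± 0.22 (adjusted p = 0.00340), which on total counts was -0.69 (adjusted p = 0.0716). Cox6c had a lowest, median and highest value of 53.2, 60.7 and 69.9 CPM in Shank3 mice at 4 h, against 39.7, 46.3, 60.1 and 61.6 CPM in naive mice of cohort 2, and 49.1, 52.6, 56.4, 56.7 and 72.0 CPM in WT mice at 4 h, against 35.5, 35.8, 44.9 and 48.8 CPM in naive mice. All naive libraries of cohort 2 lay above all naive libraries of cohort 1, which had 9.20 to 31.3 CPM. In WT mice the 4 h libraries lay within the range of the 1 h libraries, 32.7 to 78.7 CPM, and in Shank3 mice their median of 60.7 CPM lay below the lowest 1 h library, at 66.3 CPM.

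The 5 higher members were Atp5j (0.73), a stalk subunit of complex V, Cox8a (2.63), Ndufa13 (1.66), Ndufb11 (1.37) and Atp5g1 (1.86), and Ndufs5 (-0.66) was the third lower one. The calls of Atp5j and Cox8a were lost without Shank3 naive replicate 2 of cohort 1 (adjusted p = 0.0617 and 0.0645), and that of Ndufa13 without WT naive replicate 2 of cohort 1 (0.0593). The call of Ndufb11 was lost without any of 4 naive libraries, WT replicates 1 (0.0654) and 2 (0.0685) and Shank3 replicate 3 (0.0556) of cohort 1 and WT replicate 6 of cohort 2 (0.0517). That of Atp5g1 was lost in 8 of 36 cases (highest adjusted p = 0.106) and that of Ndufs5 in 13 (highest 0.0906).

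No member was called between the genotypes in naive mice, at 1 h or at 4 h, by edgeR, DESeq2, limma voom or any other alternative tried. Among all genes tested 0.00882%, 0.0% and 0.00882% were called higher in Shank3 mice and 0.0% lower in each. At an unadjusted p under 0.05 there were 1, 1 and 2 members among 539, 205 and 228 genes. The median log2 difference between Shank3 and WT mice was 0.11 in naive mice (51 of 78 members above 0), -0.22 at 1 h (70 below 0) and 0.14 at 4 h (55 above 0), and that of all genes was 0.03, -0.02 and 0.00. Without the 4 libraries with a pair share over 30%, 3 of them Shank3 and 1 WT at 4 h, the median at 4 h was -0.12. The members with the smallest p were Ndufa3 (-0.85 ± 0.33) and Uqcr10 (-0.64 ± 0.36) at 1 h and Ndufs7 (0.81 ± 0.39) and Sdhc (0.57 ± 0.28) at 4 h, all with an adjusted p of 0.9999 (edgeR). Without WT 4 h replicate 5 the values of Ndufs7 and Sdhc were 1.67 and 0.99, and without Shank3 4 h replicate 3 that of Ndufs7 was 0.43. In naive mice the smallest p were those of Uqcrc2 (-0.25) and Ndufc1, which had 0 counts in all 3 naive Shank3 libraries of cohort 1, against 1.57, 1.73 and 2.30 CPM in naive WT mice.

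The test of the swim response in Shank3 mice against that in WT mice called 0 members at either time by edgeR, DESeq2 and limma voom. Of all genes, edgeR called 0.0% at each time, and DESeq2 called 0.00882% higher at 4 h. At an unadjusted p under 0.05 there were 2 members among 468 genes at 1 h and 3 among 302 at 4 h. The median difference of the members was -0.35 at 1 h, with 63 of 78 below 0, and 0.11 at 4 h, with 47 above 0. That of all genes was -0.06 at 1 h and -0.02 at 4 h. For genes with no gene opposite, the class of 51 tested members, it was -0.21 and 0.05. The share of all genes below 0 is not given here. Small p were those of Ndufa1 (-1.62 ± 0.72) at 1 h and of Atp5e (1.15 ± 0.44) and Ndufa12 (1.25 ± 0.55) at 4 h, each with an adjusted p of 1. Without WT naive replicate 7 of cohort 2 the difference of Atp5e was 0.75. The larger number of members called at 1 h in WT than in Shank3 mice is therefore not shown to be a difference between genotypes.

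Members that share exon sequence with a gene on the other strand were set beside that partner. Of 30 such pairs, 18 had more counts on the partner, from 1.05 to 171 times as many. Of these partners 17 were tested, and 13 were called lower and 2 higher at 4 h in each genotype. The member was higher and the partner lower in 10 pairs in Shank3 mice and 8 in WT mice. Among all genes tested, 29.4% were called lower and 32.7% higher in Shank3 mice, and 26.9% and 29.0% in WT mice. Cox4i1 held 6.02 to 26.7% of the counts of Cox4i1 and Emc8 together in Shank3 mice at 4 h, against 0.741 to 2.45% in naive mice, and 5.55 to 24.4% in WT mice at 4 h, against 0.601 to 2.88% in naive mice. Emc8, whose row held 18.5 times the counts of Cox4i1, fell by 1.85 on the log2 scale in Shank3 mice and by 2.03 in WT mice.

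The share of Atp5j in its pair with Gabpa was 22.2 to 46.7% in Shank3 mice at 4 h, against 7.30 to 14.1% in naive mice, and 19.9 to 47.5% in WT mice at 4 h, against 6.39 to 11.8% in naive mice. That of Ndufb11 in its pair with Rbm10 was 29.5 to 66.9% in Shank3 mice at 4 h, against 18.8 to 24.4% in naive mice, and 30.2 to 64.0% in WT mice at 4 h, against 10.9 to 22.7% in naive mice. Ndufs3, whose own level fell, held 40.5 to 52.3% of its pair with Kbtbd4 in Shank3 mice at 4 h, against 29.7 to 37.4% in naive mice, and 41.7 to 51.8% in WT mice at 4 h, against 33.2 to 39.0% in naive mice. In these 4 pairs the 4 h and naive libraries did not overlap. Among 19 pairs with enough counts, the member's share at 4 h lay above that of naive mice without overlap in 14 in each genotype. In Shank3 mice 4 pairs overlapped and 1 lay below, and in WT mice 5 overlapped. The pair share, taken over antisense and coding rows of all genes, was also higher at 4 h without overlap. It was 17.53 to 33.09% in Shank3 mice, against 11.85 to 14.98% in naive mice, and 17.04 to 31.65% in WT mice, against 11.75 to 14.86%. A count over all such pairs is not given here, so the 14 are not shown to be particular to members.

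**Figure D4:**
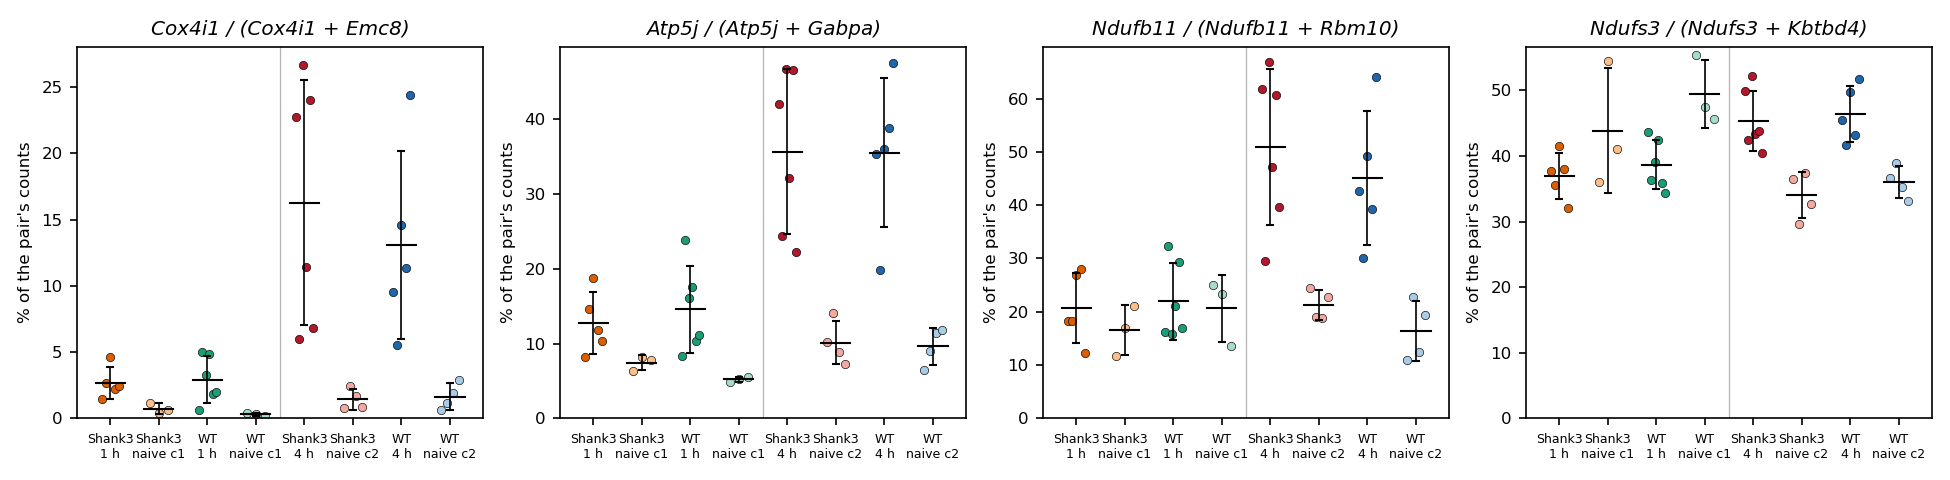
Percent of the counts of a member and its opposite-strand partner that lay on the member, for 4 pairs, in each library (points) with the mean and SD of each group. The 4 h libraries lie above the naive libraries of cohort 2 in all 4 pairs, also for Ndufs3.

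The level of most members followed the pair share, which was itself higher in the swim groups. With the centred log2 pair share in the model, its slope was positive and passed the test for 62 of 78 members and negative for 3, with a median of 1.11 per doubling, and for all genes it was positive for 32.4% and negative for 30.46% (edgeR, adjusted p under 0.05). In that fit 0 members were called at 4 h in either genotype, where 0.362% of all genes were called higher and 0.168% lower in Shank3 mice and 4.09% and 3.6% in WT mice. The members' median log2 fold change at 4 h was then 0.12 in Shank3 mice and 0.10 in WT mice, and that of all genes 0.06 and 0.07. At 1 h 3 members were called higher and 1 lower in Shank3 mice, where 5.41% and 6.59% of all genes were, and 21 higher and 1 lower in WT mice, where 12.5% and 9.24% of all genes were. The pair share and the 4 h swim move together, so that their parts in the 4 h result cannot be told apart. Without the 4 libraries with a pair share over 30%, 34 members were called higher and 2 lower of 73 tested in Shank3 mice at 4 h, and 42 higher and 3 lower in WT mice. Of all genes, 19.1% were then called higher and 22.1% lower in Shank3 mice, and 27.0% and 26.9% in WT mice.

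**Figure D5:**
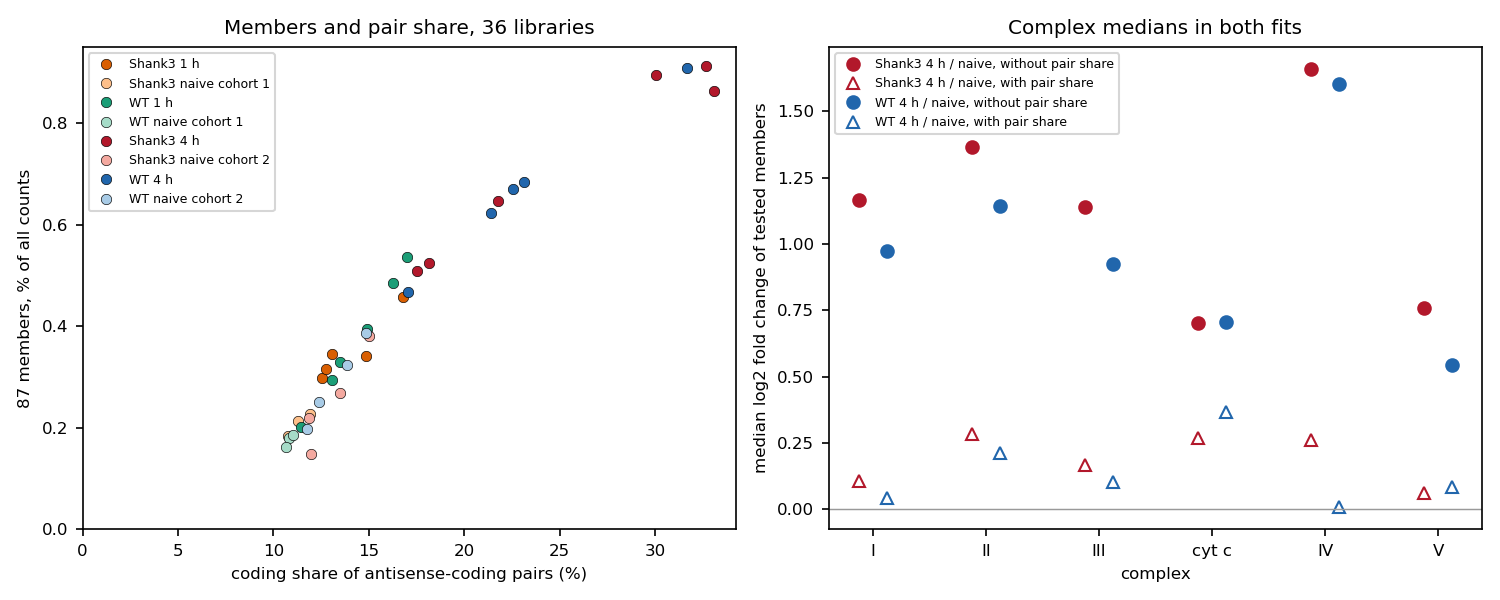
Percent of all counts on members against the pair share in 36 libraries, and the median log2 fold change at 4 h of each complex in the fit without and with the pair share. The points run along the pair share, and the complex medians, up to 1.66 without it, lie between 0.01 and 0.37 with it.

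Other genes of the pathway were read from lists chosen with earlier results of these data known. Their counts stand beside all genes tested, of which 32.7% were called higher and 29.4% lower in Shank3 mice and 29.0% and 26.9% in WT mice at 4 h, and 4.99% and 7.25% in Shank3 mice and 16.9% and 17.3% in WT mice at 1 h. Of 16 tested genes of the tricarboxylic acid cycle and pyruvate dehydrogenase, 11 rose in Shank3 mice at 4 h and 12 in WT mice, and none fell, with medians of 1.19 and 0.87. Idh3g (2.05) and Ogdh (1.51) had the smallest p in Shank3 mice, and Ogdh (1.26) and Cs, citrate synthase (1.53), in WT mice. At 1 h 1 rose in Shank3 mice, Pdhx (1.51), and 12 in WT mice, among them Pdha1 (1.13) and Dlat (0.88), both parts of pyruvate dehydrogenase. Of 14 mitochondrial carriers and channels, 9 rose and 1 fell in Shank3 mice at 4 h and 9 rose in WT mice. Slc25a5 (1.58) and Slc25a22 (1.75) led in Shank3 mice, and Vdac1 (1.23), a pore of the outer membrane, and Slc25a12 (1.34) in WT mice. At 1 h 1 carrier rose in Shank3 mice, Vdac1 (0.81), and 7 in WT mice.

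Of 10 tested mitochondrially encoded genes, which are translated inside mitochondria, 4 rose and 1 fell in each genotype at 4 h, 1 fell in Shank3 mice at 1 h, and 1 rose and 3 fell in WT mice at 1 h. Among 13 tested regulators of mitochondrial biogenesis, 2 rose and 5 fell in Shank3 mice at 4 h and 4 rose and 4 fell in WT mice. Gabpa, a subunit of the ETS factor named above, fell by 1.43 in Shank3 mice and by 1.51 in WT mice, and its row shares exon sequence with Atp5j. At 1 h 1 rose and 1 fell in Shank3 mice, Tfam (1.26) and Gabpa (-0.92), and 2 rose and 4 fell in WT mice.

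Assembly factors were read at 4 h against the same shares of all genes. For complex I 4 of 14 rose and 2 fell in Shank3 mice and 2 rose and 1 fell in WT mice. For complex II 2 of 3 fell in each, among them Sdhaf2 (-0.89 in Shank3 mice and -0.96 in WT mice). For complex III 2 of 6 rose and 1 fell in Shank3 mice and 1 rose in WT mice, Uqcc2 (1.61). For complex IV 6 of 16 rose and 2 fell in Shank3 mice and 4 rose and 1 fell in WT mice, with Surf1 at -1.71 and -1.59. For complex V 3 of 3 rose in Shank3 mice and 2 in WT mice, with Atpaf1 at 1.20 and 1.12. At 1 h these 5 lists together had 1 member called higher and 1 lower in Shank3 mice, and 6 higher and 1 lower in WT mice.

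Some cell type markers were called at 4 h as well, and their part in the members' result was not tested. Of all genes tested, 32.7% were called higher and 29.4% lower in Shank3 mice at 4 h, and 29.0% and 26.9% in WT mice. The 8 pyramidal neuron markers summed to 2212 to 3719 CPM in Shank3 mice at 4 h, against 1574 to 1956 CPM in naive mice, and to 2277 to 3881 CPM in WT mice at 4 h, against 1431 to 2067 CPM in naive mice, with 4 called higher and 2 lower in each genotype. The 8 astrocyte markers summed to 98.4 to 135 CPM in Shank3 mice at 4 h, against 51.7 to 72.5 CPM in naive mice, and to 102 to 142 CPM in WT mice at 4 h, against 43.8 to 107 CPM in naive mice, with 3 of 5 tested called higher in each. The 8 oligodendrocyte markers summed to 125 to 326 CPM in Shank3 mice at 4 h, against 71.6 to 123 CPM in naive mice, and to 117 to 273 CPM in WT mice at 4 h, against 85.4 to 91.8 CPM in naive mice, with 2 of 4 tested called higher in Shank3 mice and 3 in WT mice. The 8 microglia markers summed to 171 to 374 CPM in Shank3 mice at 4 h, against 565 to 816 CPM in naive mice, and to 174 to 397 CPM in WT mice at 4 h, against 580.2 to 885 CPM in naive mice. Nearly all of that sum was Csf1r, and Cx3cr1, P2ry12, Tmem119, C1qa, C1qb and C1qc were at or near 0. The exons of Csf1r overlap another gene, and it fell by 1.48 in Shank3 mice and by 1.43 in WT mice. The 7 interneuron markers summed to 3.70 to 85.2 CPM over all libraries, with 0 of 3 tested called at 4 h. The 8 endothelial and mural markers summed to 0 to 5.19 CPM, with Cldn5 and Ly6c1 at 0 in every library and none tested. At 1 h 1 pyramidal marker was called lower in Shank3 mice and no other marker was called. In WT mice at 1 h, 2 pyramidal markers were called higher and 2 lower, 1 of 5 astrocyte, 1 of 4 oligodendrocyte and 1 of 3 interneuron markers were called higher, and 1 of 2 microglia markers was called lower. Of all genes at 1 h, 4.99% were called higher and 7.25% lower in Shank3 mice, and 16.9% and 17.3% in WT mice. The part of the markers in the members' result at 1 h was not tested.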

How the data were processed

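Ribosome-bound RNA was sequenced from 36 libraries with a stranded TruSeq mRNA kit and paired reads, per the labels' protocols. The deposited values are whole-number counts per gene, and the submitters' processing notes name Trimmomatic 0.39, HISAT2 2.2.0, StringTie 2.1.3, Salmon 1.4, FastQC, DESeq2 and the mm10 build without their roles. Groups were taken from the labels. The members and gene lists were chosen with earlier results of these data known.

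Counts were fitted with edgeR 4.0.16 (R 4.3.3), using its quasi-likelihood test with TMM scaling and its filter on low counts, in 1 model of 8 groups with 28 residual degrees of freedom. The 11341 genes kept were adjusted together by the Benjamini-Hochberg method with a threshold of 0.05. CPM divide each count by the library total after TMM, and each SE was taken from the log2 fold change and the F value. The common biological coefficient of variation was 24.15%. DESeq2 1.42.0 and limma 3.58.1 (voom) were alternatives, and Python 3.11.15 with pandas 2.3.3 made the tables. Coordinates and exon overlaps come from the GENCODE vM21 annotation and promoters from RefSeq.

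Named were, per comparison, the 3 rising and 3 falling called members with the smallest p, or the 2 with the smallest p where fewer than 2 were called, the 2 members per complex with the highest level, the catalytic or electron-carrying subunits, the isoform sets and up to 2 called genes per other list. On counts simulated for the WT 4 h comparison over 10041 genes, 41.3% of 2-fold and 100% of 4-fold increases, 62.8% of 0.5-fold and 89.1% of 0.25-fold decreases and 0.0609% of unchanged genes were called. Only 43 to 49 genes were changed per fold, without a shift in the pair share. In the real comparison 29.0% of genes were called higher and 26.9% lower, so these rates need not hold for it. Chi-square values per degree of freedom of 68 same-group library pairs ran from 1.456 to 81.59, and none was counted as a duplicate. Depth, at 0.884 to 3.52 M counts, leaves members of few counts imprecise. The values of 1 member are not reported here, though it is included in the counts and medians.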

Additional observations from a re-analysis of the deposited data

Results flagged for a closer look

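The levels of named members and of complex sums were examined in 216 sets, each 1 group of 4 to 6 libraries, and in 13 of them a single library stood far from the others of its group. Chance gives about 1 in 20. In Shank3 mice at 1 h, replicate 3 had 470.1 CPM of Atp5a1, 821.6 CPM of Atp5b and 2101 CPM for complex V summed, where the median of the others was 387.5, 650.8 and 1816 CPM, and replicate 1 had 147.1 CPM of Ndufs3, where the others had a median of 118.4 CPM. In WT mice at 1 h, replicate 2 had 26.0 CPM of Ndufb11 and 85.19 CPM of Uqcrh, where the others had medians of 12.11 and 48.11 CPM. In WT mice at 4 h, replicate 2 had 69.62 CPM of Ndufa5, where the others had a median of 48.71 CPM, and replicate 5 had 33.71 CPM of Cox8a and 10.18 CPM of Atp5g2, where the others had medians of 11.69 and 4.308 CPM. Among WT naive libraries of cohort 2, replicate 4 had 177.7 CPM of Sdha and 192.7 CPM for complex II summed, where the others had medians of 253.1 and 277.1 CPM, replicate 6 had 9.523 CPM of Uqcrfs1 (median of the others 4.983 CPM) and replicate 7 had 9.966 CPM of Atp5g2 (median of the others 3.401 CPM).

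The swim response at 4 h differed from that at 1 h in 8 of 78 members by the test of the difference itself (edgeR, adjusted over all genes). Of all genes, 3.74% were called higher and 8.61% lower, so the number called is not particular to members. On the log2 scale the difference was 2.626 for Cox8a (adjusted p = 0.0191), 1.863 for Atp5g1 (0.0361), 1.659 for Ndufa13 (0.0244), 1.368 for Ndufb11 (0.0297) and 0.7306 for Atp5j (0.0161). It was -1.497 for Cox6c (adjusted p = 0.000235), -0.9798 for Ndufa5 (0.00340) and -0.6566 for Ndufs5 (0.0387). The 2 times belong to different cohorts, so time and cohort cannot be told apart.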

How the results depend on the processing

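No member was called between genotypes or in their swim responses under any alternative tried. Members called are of 78 tested, except 51 among genes with no gene opposite, 83 without the low-count filter and 73 without the libraries over 30% pair share (chosen after seeing the data). At 4 h, 61 were called in Shank3 mice, against 0 with the pair share, 34 of the 51 (43 higher and 1 lower in the fit of all genes) and 36 of the 73; in WT mice 54 were called, against 0, 25 of the 51 (36 higher and 1 lower in the fit of all genes) and, with TMM from genes with no gene opposite, 35. At 1 h in WT mice 34 were called, against 22 with the pair share, 8 among genes with no gene opposite and 16 with TMM from them. The fit of genes with no gene opposite called 25.6% of them higher and 25.6% lower in Shank3 mice at 4 h. In WT mice it called 19.8% and 22.6% at 4 h and 8.56% and 10.1% at 1 h. At 1 h in Shank3 mice 5 were called, against 16 on total counts, 3 with TMM from genes with no gene opposite, 9 without the low-count filter, 11 by DESeq2, 19 with an additive cohort term, 3 without the libraries high in ribosomal RNA, 1 among genes with no gene opposite and 12 without those over 30% pair share. The main fit there called 4.99% of all genes higher and 7.25% lower. Total counts gave 14.7% and 0.908%, DESeq2 7.92% and 11.7%, and the additive cohort term 11.7% and 13.9%. Without the low-count filter the shares were 2.23% and 3.37%. For 4 h minus 1 h 8 were called, against 4 with the pair share, 4 without the ribosomal RNA libraries, 5 among genes with no gene opposite and 4 without those over 30% pair share. Of all genes, 3.74% were called higher and 8.61% lower in the main fit. With the pair share these were 2.52% and 3.69%, and without the ribosomal RNA libraries 2.23% and 5.55%. Leaving out 1 library gave 54 to 65 (Shank3 4 h), 38 to 57 (WT 4 h), 1 to 7 (Shank3 1 h), 16 to 36 (WT 1 h) and 4 to 8 (4 h minus 1 h). The lowest counts came without Shank3 naive replicates 2 or 3 of cohort 1 or Shank3 1 h replicate 3 (1 each), WT naive replicate 3 of cohort 1 (16) and Shank3 naive replicate 2 of cohort 1 (4). Same-numbered libraries had correlations of deviations from -0.238 to 0.718. Libraries with different numbers were not compared in this way, so pairing by number is neither shown nor excluded. With the replicate block the counts were 59 (Shank3 4 h), 42 (WT 4 h), 2 (Shank3 1 h), 33 (WT 1 h) and 1 (4 h minus 1 h). Of all genes, that fit called 29.4% higher and 28.1% lower (Shank3 4 h) and 21.4% and 24% (WT 4 h). It called 2.3% and 2.05% (Shank3 1 h), 14.4% and 14.8% (WT 1 h) and 0.882% and 2.24% (4 h minus 1 h). Signs turned on total counts for Atp5f1 (Shank3 4 h 0.19, WT 1 h 0.0296), Ndufs3 (Shank3 4 h 0.25, WT 4 h 0.13) and Ndufa5 (0.33 and 0.12). With the pair share they turned for Atp5g1 (Shank3 4 h -0.46, WT 4 h -0.41), Uqcrfs1 (-0.21), Atp5a1 (-0.0324) and Cyc1 (-0.51) in Shank3 mice at 4 h and Cox6a1 (-0.12) and Cox8a (-0.00906) in WT mice at 4 h, and with TMM from genes with no gene opposite for Atp5b (Shank3 4 h -0.0315). The cause was not tested. Of 3476 alternatives for 73 named results, 3226 kept direction and call, 236 lost the call and 14 changed sign. Depth limits Cox8a, Cox7a2 and Ndufc1, whose naive libraries hold few counts.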
